A study of Mus musculus with 24 samples.

Results

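The genes described here write, read and remove DNA methylation and histone marks. They are 48 members of 11 families: DNA methyltransferases with Uhrf1, TET enzymes, methyl-CpG binding proteins, class I and class II and IV histone deacetylases, sirtuins, histone acetyltransferases, Polycomb repressive complex 2, lysine demethylases, histone H3 lysine 9 methylation genes, and Dot1l. A probe belonged to a member when the gene name in the scanner files was exactly the member's symbol, which gave 116 of 56605 probes and 48 of 37074 gene names. The members were described in the liver of 24 male C57Bl6J mice, 1 array of 1 colour (Cy3) per mouse. All mice were the third generation of a lineage bred on a supplemented growth diet. The reference mice (STD_Cont, 9 arrays) came from the lineage given high-oleic sunflower oil and ate a low-fat diet. HFoleic mice (HFD_Cont, 8 arrays) came from the same lineage, labelled Control fatty acid, and ate an obesogenic diet rich in fat and sucrose. HFepa mice (HFD_O3, 7 arrays) came from the lineage labelled n-3PUFA, whose growth diet held fish oil with eicosapentaenoic acid (EPA), and ate the same obesogenic diet. EPA-lineage mice on the low-fat diet are not among the arrays, so lineage and its response to diet cannot be told apart in HFepa against reference. All mice were killed fasting, and their age is not given in the sources used here.

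DNA methyltransferases place methyl groups on cytosines next to guanines, TET enzymes oxidise them, and methyl-CpG binding proteins recruit repressors to them. Histone acetyltransferases open chromatin, deacetylases and sirtuins reverse the acetyl mark, and lysine methyltransferases and demethylases set marks of active or silent chromatin. These enzymes use S-adenosylmethionine, acetyl-CoA, NAD and oxoglutarate, metabolites that the liver makes or consumes in response to diet.

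Signals are log2 median spot intensities after quantile normalization, and each gene was read from its brightest tested probe. Tested probes were those that the scanner software marked as well above background on 75% or more of a group's arrays. Of the 48 members, 46 had a tested probe. The probe of Hdac2, a class I deacetylase, was well above background on 5 of 9 reference, 2 of 8 HFoleic and 3 of 7 HFepa arrays, and none of the 6 probes of Hdac9 passed either. For both genes no level is given. The 10 hepatocyte markers checked were well above background on all 24 arrays. Reference replicate 5 stood apart from the other arrays on the first principal component of all genes (78.1 against -12.9 to 28.2), and its mean signal of bile duct and stellate cell markers was the highest of the reference group (9.36 and 10.4). In bulk liver, fewer cells of a type and less RNA per cell cannot be told apart.

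In HFoleic against reference, limma called 5 of 46 tested members (10.9%) at an adjusted p under 0.05. Over the 20192 genes tested the share was 8.07%. Hdac11 was higher, where 4.52% of all genes were called higher, and Dnmt3b, Dot1l, Hdac7 and Suv39h2 were lower, where 3.55% were called lower. At an unadjusted p under 0.05 there were 12 of 46 members, beside 22.3% of all genes. In HFepa against reference no member was called by limma, where 0.391% of all genes were called. The methods' t-test called 0 of all tested probes in that comparison, and so no member. At an unadjusted p under 0.05 limma then gave 14 of 46 members, beside 14% of all genes, and the t-test gave 12 members. In HFepa against HFoleic no member and 0% of all genes were called. In limma 4 of 46 members had an unadjusted p under 0.05, beside 9.96% of all genes, and 7 members by the t-test. The shares of all genes by the t-test are not given here. The median log2 change of the 46 members was -0.0075 in HFoleic against reference, -0.019 in HFepa against reference and -0.0018 in HFepa against HFoleic, beside -0.0062, 0.00082 and 0.0054 over all genes. Both comparisons against reference use the same 9 reference mice and are therefore not independent. Quantile normalization sets all arrays to the same distribution, so a shift common to all genes would not be seen.

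**Figure D1:**
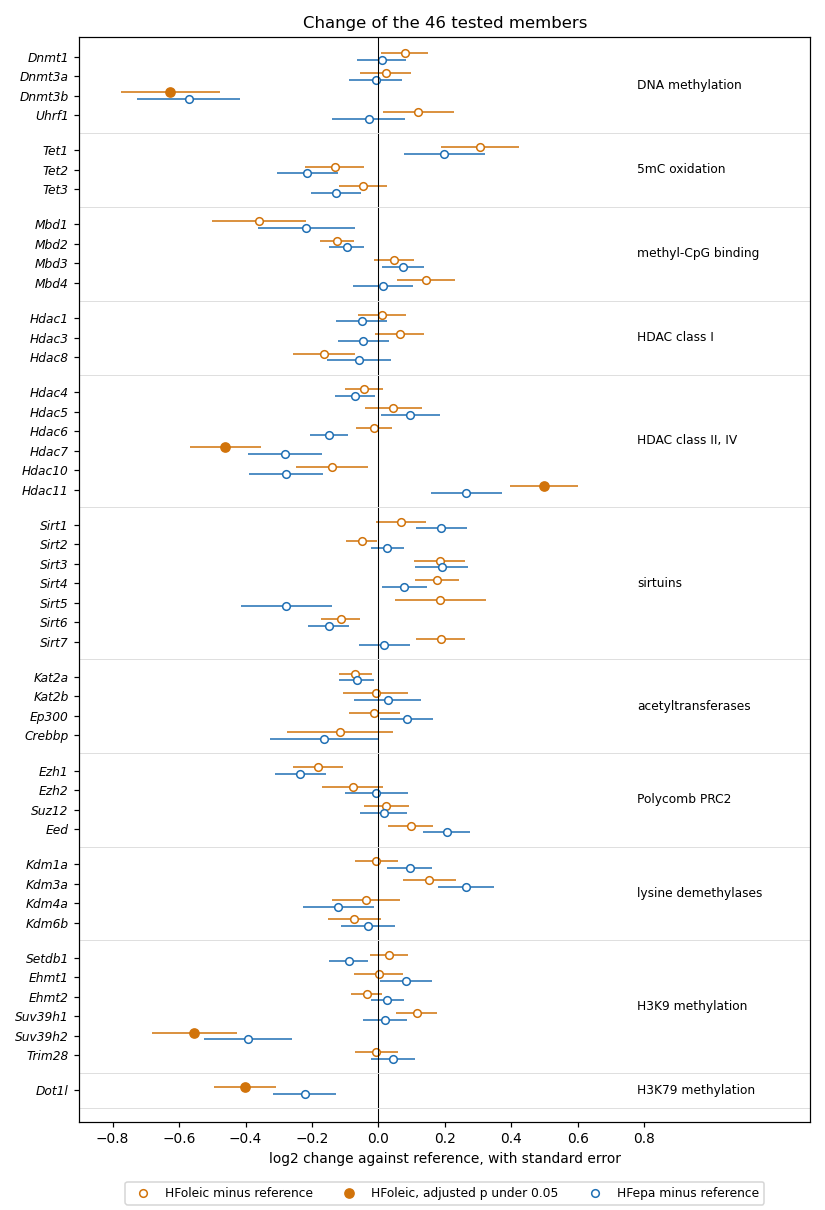
Log2 change against reference (x axis, points with standard errors) of the 46 tested members (y axis), grouped by family, for HFoleic and HFepa mice. Filled points are adjusted p under 0.05: 4 lower and 1 higher in HFoleic, none in HFepa, while most members lie close to 0.

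Dnmt3b, an enzyme that sets new DNA methylation, had the largest fall of the called members. Its signal in the reference mice ran from 8.67 to 9.71 with a median of 9.24, in HFoleic mice from 8.25 to 8.91 with a median of 8.57, and in HFepa mice from 7.98 to 9.05 with a median of 8.79. All 8 HFoleic mice lay below the reference mean, and 5 of them below every reference mouse. The log2 change in HFoleic was -0.63 ± 0.15 (SE; limma adjusted p = 0.0109), a 1.54-fold fall. In HFepa the change was -0.57 ± 0.16 (adjusted p = 0.0908), with all 7 mice below the reference mean and 3 below every reference mouse. This was the smallest p among the members in that comparison, and it passed the threshold in the fit with the slide as a block (-0.58, adjusted p = 0.0412) and without reference replicate 8 (-0.64, adjusted p = 0.0319). With a score of circadian clock genes as a covariate, described with the cell type markers below, the HFoleic change was -0.39 and not called (adjusted p = 0.0987). HFepa and HFoleic differed by 0.06 ± 0.16 (adjusted p = 0.95). A second tested probe of the gene gave -0.53 in HFoleic (adjusted p = 0.0116) and -0.49 in HFepa (adjusted p = 0.0857), and the third lay above background on at most 2 arrays of a group. Within the 3 slides the HFoleic change was -0.65, -0.91 and -0.36. The brightest probe lies on chromosome 2 at 153513402 to 153513461 in build mm9.

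Dot1l, the methyltransferase of lysine 79 of histone H3, was also lower in HFoleic mice. The reference mice ran from 10.53 to 11.17 with a median of 11.02, the HFoleic mice from 10.36 to 10.75 with a median of 10.53, and the HFepa mice from 10.26 to 10.95 with a median of 10.74. Each HFoleic mouse was below the reference mean and 4 were below every reference mouse, so the groups overlapped through the lowest reference mouse. The HFoleic change was -0.40 ± 0.09 (adjusted p = 0.00858) and the HFepa change -0.22 ± 0.10 (adjusted p = 0.301), and HFepa and HFoleic differed by 0.18 ± 0.10 (adjusted p = 0.573). With the clock score as a covariate the HFoleic change was not called (-0.28, adjusted p = 0.0807). The probes of the gene did not move alike. A second probe changed by -0.44 in HFoleic (adjusted p = 0.00776), but the third, on chromosome 10 at 80255424 to 80255483 (mm9), gave 0.03 (adjusted p = 0.895). The probe at 0.03 was dim, with a mean log2 signal of 6.15 over all arrays against 10.75 and 10.07 for the others. The 2 called probes lie at 80257008 to 80257067 and 80258146 to 80258205, and the fourth was not tested.

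Hdac11 is the sole class IV deacetylase and removes fatty acyl groups from lysines. It was the member with the smallest p in HFoleic against reference and the only one called higher. Its signal was 7.37 to 8.28 in the reference mice (median 7.76), 8.10 to 8.47 in HFoleic mice (median 8.28) and 7.78 to 8.44 in HFepa mice (median 8.02). All 8 HFoleic mice were above the reference mean, 4 of them above every reference mouse. The log2 change was 0.50 ± 0.10 (adjusted p = 0.00462), or 1.41-fold. In HFepa it was 0.26 ± 0.11 (adjusted p = 0.264), with 7 of 7 mice above the reference mean. HFepa lay below HFoleic by a log2 difference of -0.23 ± 0.11 (unadjusted p = 0.0423, adjusted p = 0.497), and 5 of 7 HFepa mice were below every HFoleic mouse. The gene was read from 1 tested probe, on chromosome 6 at 91124085 to 91124144 (mm9). Its other probe was above background on at most 3 arrays of a group.

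**Figure D2:**
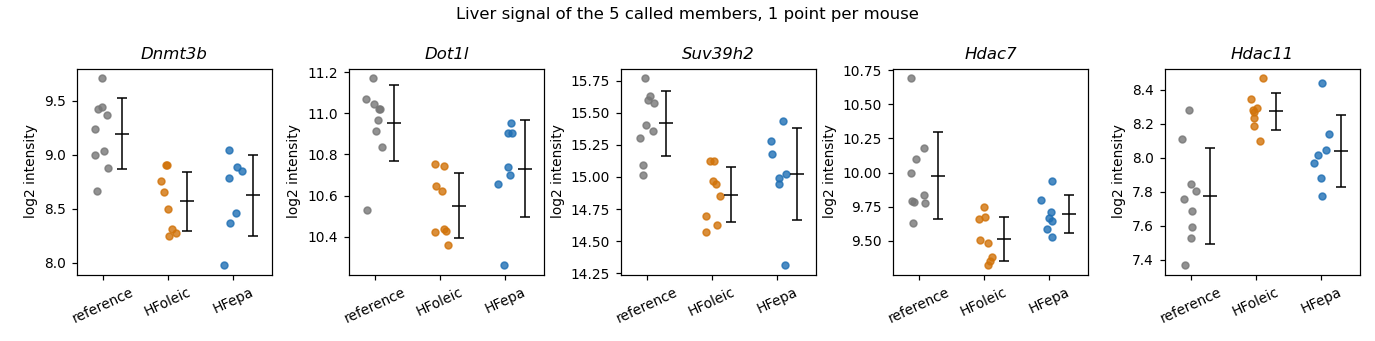
Log2 intensity (y axis) of the 5 called members in the reference, HFoleic and HFepa mice, 1 point per mouse, with the group mean and SD as a bar beside the points. For each gene all 8 HFoleic mice lie on the same side of the reference mean, and the HFepa mean lies between the other 2 group means.

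The 250 bases before the transcription start of these 3 members are shown because their probes hold no long dinucleotide run, unlike those of Suv39h2 and Hdac7 below. They come from RefSeq (GRCm38.p6), on the plus strand at chr2:153649199-153649448 for Dnmt3b, chr10:80754953-80755202 for Dot1l and chr6:91156565-91156814 for Hdac11. Capitals mark letters searched on both strands: the E-box CACGTG, the cAMP response element TGACGTCA, the CCAAT box, the GC box GGGCGG, the E2F forms TTTGGCGC and TTTCGCGC, and CCACG from the ER stress response element. Neighbouring GC boxes can share a letter, and CCACG overlaps an E-box that follows a C.
Dnmt3b: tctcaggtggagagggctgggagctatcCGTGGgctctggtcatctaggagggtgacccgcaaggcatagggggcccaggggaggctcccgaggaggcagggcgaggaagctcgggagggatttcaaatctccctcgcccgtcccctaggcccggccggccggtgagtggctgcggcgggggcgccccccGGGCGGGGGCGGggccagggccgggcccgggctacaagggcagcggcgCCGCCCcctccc
Dot1l: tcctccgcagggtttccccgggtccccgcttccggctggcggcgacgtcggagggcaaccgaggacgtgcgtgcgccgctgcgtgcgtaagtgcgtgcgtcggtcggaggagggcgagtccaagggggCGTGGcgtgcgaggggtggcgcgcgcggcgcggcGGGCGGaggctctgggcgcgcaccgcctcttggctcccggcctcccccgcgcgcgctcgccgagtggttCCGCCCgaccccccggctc
Hdac11: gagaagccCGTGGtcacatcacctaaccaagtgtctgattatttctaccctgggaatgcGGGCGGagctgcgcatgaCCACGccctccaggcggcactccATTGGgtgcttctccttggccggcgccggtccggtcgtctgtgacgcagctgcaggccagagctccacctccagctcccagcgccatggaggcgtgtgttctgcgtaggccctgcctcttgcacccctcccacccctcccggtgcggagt
The Dnmt3b window held 3 GC boxes, that of Dot1l 2 and that of Hdac11 1, where 32.7% of 32851 promoter windows held at least 1. CCACG was found 1 time for Dnmt3b, 1 time for Dot1l and 2 times for Hdac11, beside 28.3% of windows with a match. Only the Hdac11 window held a CCAAT box (33.8% of windows), and none held the E-box, the cAMP response element or an E2F form, found in 6.02%, 1.55%, 0.417% and 0.256% of windows. The windows of Dnmt3b, Dot1l and Hdac11 contained 21, 44 and 17 CpG dinucleotides, against a median of 6 over all windows. A match is a description of letters and was not tested as a binding site.

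Suv39h2 and Hdac7 were called lower in HFoleic, and the brightest probes of both hold runs of TG repeats. Suv39h2 trimethylates lysine 9 of histone H3, and Hdac7 is a class IIa deacetylase. Part of each probe is shown with its TG runs of 3 or more units in capitals.
Suv39h2: gTGTGTGtcTGTGTGTGTGTGttgcttact
Hdac7: attTGTGTGtaTGTGTGTGtatgagtgcgt
The longest run is 6 units in the probe of Suv39h2 (chromosome 2, 3373186 to 3373245, mm9) and 4 units in that of Hdac7 (chromosome 15, 97623208 to 97623267), each the gene's only tested probe. No other member was read from a probe with 4 or more TG or CA units in a row. For Suv39h2 the reference mice ran from 15.01 to 15.77 (median 15.40), the HFoleic mice from 14.57 to 15.12 (median 14.90) and the HFepa mice from 14.31 to 15.43 (median 15.02). All 8 HFoleic mice were below the reference mean and 6 below every reference mouse, with a change of -0.55 ± 0.13 (adjusted p = 0.00893), or -0.43 and not called with the clock score as a covariate (adjusted p = 0.0788). The HFepa change was -0.39 ± 0.13 (adjusted p = 0.17). For Hdac7 the ranges were 9.63 to 10.69 in reference (median 9.83), 9.32 to 9.75 in HFoleic (median 9.49) and 9.53 to 9.94 in HFepa (median 9.67). The HFoleic change of Hdac7 was -0.46 ± 0.11 (adjusted p = 0.00979) and the HFepa change -0.28 ± 0.11 (adjusted p = 0.258). Reference replicate 5 was the highest mouse for Hdac7 (10.69). With 1 array left out, the HFoleic change of Hdac7 ran from -0.50 to -0.37 and was called each time.

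Probes of other genes were grouped by the length of their repeat. Of 105 tested probes with a TG run of 6 or more units, the length in the Suv39h2 probe, 99 were called lower in HFoleic and 0 higher, with a median log2 change of -0.61 in HFoleic and -0.37 in HFepa. The 100 probes with 4 units, the length in the Hdac7 probe, moved less, with 7 called lower, 3 higher, a median of -0.080 and quartiles of -0.22 and 0.046, so the Hdac7 change of -0.46 lay below the lower quartile. Among 20161 probes with 1 unit, 2.76% were called lower (median change 0.0015). Probes with 6 or more CA units, the opposite strand of the repeat, went the other way, with 37 of 60 called higher and 0 lower (median 0.43). Across the 24 mice the Suv39h2 probe followed the mean of the 104 other long-run TG probes with Pearson's r = 0.97 and Spearman's rho = 0.98. It was 0.97 without the 2 arrays farthest from the median, 0.91, 0.96 and 0.98 within reference, HFoleic and HFepa, and 0.97 to 0.996 within slides. For Hdac7 r was 0.72 (rho 0.80), with 0.54, 0.55 and 0.49 within the groups. Dnmt3b, read from a probe without such a run, had a pooled r of 0.64 and 0.14, 0.07 and 0.68 within the groups. These are 3 of 5 such relations computed, the others being Dot1l (r = 0.70, with 0.52, -0.20 and 0.68 within the groups) and Hdac11 (r = -0.71, with -0.47, 0.13 and -0.66). They are given without a p, since the 5 members were picked for a difference between groups in which the long-run mean differed too (14.5 in reference and 13.9 in HFoleic). With the 451 probes holding 4 or more TG or CA units left out before normalization, 3 of 44 members were called in HFoleic against reference: Dnmt3b, Dot1l and Hdac11. Whether transcripts of Suv39h2 and Hdac7 themselves differed was not tested by another probe, since the second Suv39h2 probe was above background on only 4, 1 and 1 arrays of the 3 groups.

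**Figure D3:**
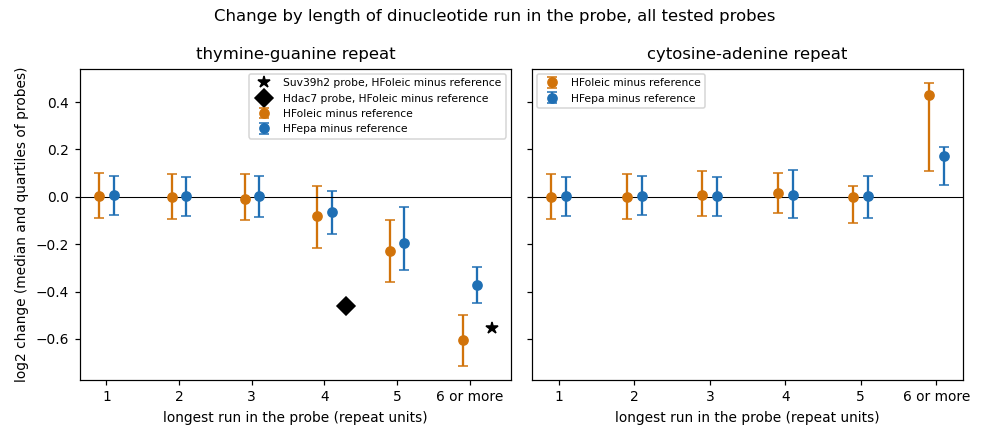
Log2 change (y axis, median with quartiles over all tested probes) by the longest dinucleotide run in the probe (x axis, repeat units), for HFoleic and HFepa against reference. The medians leave 0 as the thymine-guanine run lengthens, to -0.61 in HFoleic at 6 or more units, and turn higher (0.43) for the cytosine-adenine run, and the black symbols place the Suv39h2 and Hdac7 probes.

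**Figure D4:**
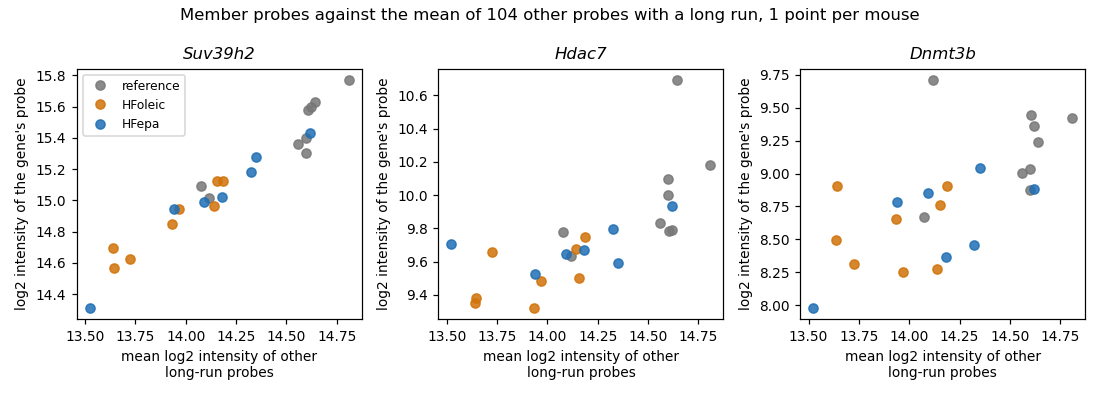
Log2 intensity of the Suv39h2, Hdac7 and Dnmt3b probes (y axes) against the mean log2 intensity of 104 other probes with 6 or more thymine-guanine units (x axis), 1 point per mouse, coloured by group. Suv39h2 follows the mean within every group (r = 0.91 to 0.98), Hdac7 less closely (0.49 to 0.55), and Dnmt3b unevenly (0.07 to 0.68).

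The other DNA methyltransferase genes were not called. Dnmt1, which copies methylation onto newly made strands, changed by 0.08 ± 0.07 in HFoleic and 0.01 ± 0.07 in HFepa (adjusted p = 0.573 and 0.977). Its signals were 6.53 to 6.99 in reference (median 6.66), 6.49 to 6.91 in HFoleic (median 6.79) and 6.38 to 6.90 in HFepa (median 6.71), overlapping almost fully. Uhrf1, which brings Dnmt1 to hemimethylated sites, ranged from 5.91 to 6.58 (median 6.05), 5.78 to 6.54 (median 6.27) and 5.63 to 6.26 (median 6.14). Its changes were 0.12 ± 0.11 and -0.03 ± 0.11 (adjusted p = 0.573 and 0.948). The Uhrf1 probe was dim, well above background on 9 of 9 reference, 7 of 8 HFoleic and 6 of 7 HFepa arrays. Dnmt3a, the partner of Dnmt3b in setting new methylation, ranged from 8.59 to 9.22 (median 8.92), 8.64 to 9.09 (median 8.91) and 8.80 to 8.96 (median 8.90), and its changes were 0.02 ± 0.08 and -0.01 ± 0.08 (adjusted p = 0.914 and 0.983). The changes of Dnmt3a in both comparisons and of Dnmt1 and Uhrf1 in HFepa took the other sign in some of the alternatives.

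None of the 3 TET genes, whose enzymes start the removal of DNA methylation, was called. Tet1 ranged from 7.17 to 8.06 in reference (median 8.02), 7.88 to 8.62 in HFoleic (median 8.12) and 7.89 to 8.35 in HFepa (median 7.93). Its changes were 0.31 ± 0.12 (adjusted p = 0.12) and 0.20 ± 0.12 (adjusted p = 0.51), with 8 of 8 HFoleic and 7 of 7 HFepa mice above the reference mean. Reference replicate 5 was the lowest mouse for Tet1 and the highest for Tet2, and without it the Tet1 changes were 0.22 and 0.12. Tet2 ranged from 8.81 to 9.63 (median 9.04), 8.75 to 9.13 (median 9.01) and 8.63 to 9.00 (median 8.94). Its changes were -0.13 ± 0.09 and -0.21 ± 0.09 (adjusted p = 0.427 and 0.299), or -0.065 and -0.15 without reference replicate 5. The other tested Tet2 probes were dimmer (mean log2 signal 6.18 and 6.49). They gave -0.04 and -0.10 in HFoleic, and 0.006 and -0.03 in HFepa. Tet3 ranged from 6.67 to 6.99 (median 6.79), 6.53 to 7.20 (median 6.74) and 6.53 to 6.78 (median 6.65), and changed by -0.05 ± 0.07 and -0.13 ± 0.08 (adjusted p = 0.781 and 0.485). The 4 methyl-CpG binding genes gave no call either, with changes from -0.36 to 0.14 in HFoleic and from -0.22 to 0.07 in HFepa. The 0.14 was that of Mbd4, whose probe was well above background on 6 of 9 reference, 6 of 8 HFoleic and 2 of 7 HFepa arrays and was tested through HFoleic alone. The -0.36 was that of the brightest Mbd1 probe, while 2 other tested Mbd1 probes gave 0.11 and 0.04. Mbd1 is a reader of methylated CpG sites, and its brightest probe passed the threshold without reference replicate 8 (-0.46, adjusted p = 0.0169).

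Among the classical deacetylases, 2 of 9 tested genes were called in HFoleic, Hdac7 and Hdac11 above, beside 8.07% of all genes. The 3 tested class I genes changed by -0.16 to 0.06 in HFoleic and -0.06 to -0.04 in HFepa. Hdac3, the catalytic subunit of the nuclear receptor corepressor complex in liver, ranged from 8.88 to 9.44 in reference (median 9.17), 9.12 to 9.45 in HFoleic (median 9.17) and 8.91 to 9.30 in HFepa (median 9.14). Its changes were 0.06 ± 0.07 and -0.04 ± 0.08 (adjusted p = 0.682 and 0.864). Hdac6, a class IIb deacetylase whose best known target is tubulin, had the second smallest p between the lineages on the obesogenic diet among members' brightest probes. It ranged from 10.50 to 10.91 in reference (median 10.72), 10.62 to 10.76 in HFoleic (median 10.70) and 10.33 to 10.67 in HFepa (median 10.57). HFepa lay below HFoleic by -0.14 ± 0.06 (unadjusted p = 0.0288, adjusted p = 0.448), with all 7 HFepa mice below the HFoleic mean and 5 below every HFoleic mouse. Hdac4, Hdac5 and Hdac10 changed by -0.14 to 0.04 in HFoleic and -0.28 to 0.10 in HFepa. In HFepa against HFoleic the brightest Hdac4 probe gave -0.03. A dim one (mean log2 signal 6.25) gave 0.20 (limma unadjusted p = 0.0239, adjusted p = 0.427), and a further tested one (7.04) gave -0.03.

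The 7 sirtuins, NAD-dependent deacylases, had a median change of 0.18 in HFoleic and 0.027 in HFepa, and none was called. At an unadjusted p under 0.05 there were 3 in HFoleic, beside 22.3% of all genes: Sirt3, Sirt4 and Sirt7, with changes of 0.18, 0.18 and 0.19. In HFepa there were also 3, beside 14% of all genes: Sirt1 and Sirt3, each with a change of 0.19, and Sirt6, with -0.15. Sirt1, a nuclear deacetylase that acts in the fasting response, ranged from 9.02 to 9.59 in reference (median 9.37), 9.26 to 9.69 in HFoleic (median 9.39) and 9.35 to 9.74 in HFepa (median 9.58). Its changes were 0.07 ± 0.08 and 0.19 ± 0.08 (adjusted p = 0.677 and 0.275), and a second, dim probe (mean log2 signal 5.96, above background on 4 of 7 HFepa arrays) gave -0.10 and -0.06. Sirt5, a mitochondrial enzyme that removes succinyl and related groups, had the smallest p among members in HFepa against HFoleic. It ranged from 9.90 to 10.56 in reference (median 10.44), 10.31 to 10.88 in 7 HFoleic mice with a value (median 10.44) and 9.39 to 10.55 in HFepa (median 9.98). The difference between HFepa and HFoleic was -0.46 ± 0.15 (unadjusted p = 0.00395, adjusted p = 0.278), with 6 of 7 HFepa mice below the HFoleic mean and 4 below every HFoleic mouse. It was -0.44, -0.46 and -0.37 within the 3 slides. Sirt7, a nucleolar deacetylase, was the third by p among brightest probes in that comparison. It ranged from 12.21 to 12.73 in reference (median 12.43), 12.36 to 12.80 in HFoleic (median 12.63) and 12.30 to 12.58 in HFepa (median 12.44), with a difference of -0.17 ± 0.08 (adjusted p = 0.486). Probes of Sirt3, a mitochondrial deacetylase, disagreed: the brighter gave 0.18 and the other -0.20 in HFoleic, both at an unadjusted p under 0.05 (0.0244 and 0.0218).

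Kdm3a and Ezh1 followed Dnmt3b in the order of p in HFepa against reference. Kdm3a removes methyl groups from lysine 9 of histone H3, and Ezh1 is a lysine 27 methyltransferase of Polycomb repressive complex 2 in resting cells. Kdm3a ranged from 9.39 to 9.88 in reference (median 9.68), 9.67 to 10.03 in HFoleic (median 9.79) and 9.68 to 10.20 in HFepa (median 9.98). Its changes were 0.15 ± 0.08 in HFoleic and 0.26 ± 0.08 in HFepa (adjusted p = 0.282 and 0.143), with 6 of 7 HFepa mice above the reference mean, while a second, dim probe (mean log2 signal 6.05) gave -0.07 in each. Ezh1 ranged from 11.35 to 11.98 in reference (median 11.51), 11.30 to 11.46 in HFoleic (median 11.40) and 11.16 to 11.57 in HFepa (median 11.32). Its changes were -0.18 ± 0.07 and -0.24 ± 0.08 (adjusted p = 0.147 and 0.156), and every HFoleic and HFepa mouse lay below the reference mean. Reference replicate 5 was the highest mouse (11.98), and the highest HFepa mouse (11.57) lay above the reference median. With 1 array left out, the changes ran from -0.21 to -0.13 in HFoleic and from -0.27 to -0.18 in HFepa. Ezh2, the methyltransferase of that complex in dividing cells, ranged from 7.21 to 8.11 (median 7.33), 7.27 to 7.49 (median 7.39) and 7.29 to 7.64 (median 7.44), with changes of -0.08 ± 0.09 and -0.01 ± 0.10 (adjusted p = 0.698 and 0.991). All 5 probes of Ezh2 were tested and gave -0.08 to -0.02 in HFoleic. The complex subunits Eed and Suz12 changed by 0.10 and 0.02 in HFoleic and by 0.21 and 0.02 in HFepa, none called.

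The remaining families were close to reference. The 4 acetyltransferases Kat2a, Kat2b, Ep300 and Crebbp changed by -0.12 to -0.01 in HFoleic and -0.16 to 0.09 in HFepa. The demethylases Kdm1a, Kdm4a and Kdm6b stayed between -0.07 and -0.01 in HFoleic and between -0.12 and 0.09 in HFepa. Apart from Suv39h2, the lysine 9 genes Setdb1, Ehmt1, Ehmt2, Suv39h1 and Trim28 ranged from -0.04 to 0.11 in HFoleic and from -0.09 to 0.08 in HFepa. None of these 12 genes had an unadjusted p under 0.05 in either comparison against reference. The spread between mice of a group differed among members, from a residual SD of 0.080 log2 units for Kat2a to 0.33 for Dnmt3b and 0.35 for Crebbp, around a median of 0.15 (0.18 over all genes).

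**Figure D5:**
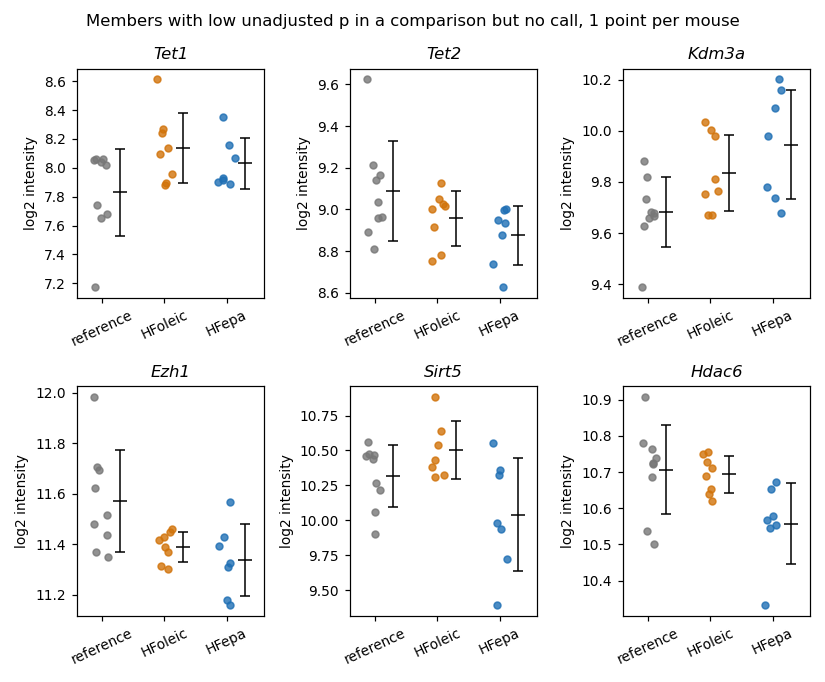
Log2 intensity (y axis) of 6 members without a call in the reference, HFoleic and HFepa mice, 1 point per mouse, with the group mean and SD beside the points. The HFepa mean of Tet2, Ezh1, Sirt5 and Hdac6 is the lowest of the 3 groups, with overlapping mice. The lowest Tet1 and highest Tet2 reference mouse is the same animal, replicate 5.

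Of 129 further chromatin genes tested, from 6 lists that hold none of the members, 4 were called in HFoleic against reference (1 higher, 3 lower), beside 8.07% of all genes, and 0 in HFepa, where 24 had an unadjusted p under 0.05, beside 14% of all genes. Their median changes were -0.026 and 0.018. Rbbp4, a histone-binding subunit shared by deacetylase and Polycomb complexes, was higher by 0.41 ± 0.06 (adjusted p = 0.000541) in 8 of 8 HFoleic mice, and its second probe was called too. The methyltransferases Prmt7 (-0.20 ± 0.05, adjusted p = 0.0137), Smyd2 (-0.21 ± 0.06, adjusted p = 0.0347) and Setd7 (-0.51 ± 0.15, adjusted p = 0.0454) were lower in 8 of 8 HFoleic mice. No second probe of Prmt7 or Smyd2 was called, and Setd7 had 1 tested probe.

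Clock genes and cell type markers were measured beside these calls. The clock score, the mean log2 signal of the 3 tested genes that peak with Bmal1 minus that of the 8 that peak with the Per genes, ran from 0.17 to 1.68 in reference, -0.82 to 1.25 in HFoleic and -1.46 to 1.66 in HFepa mice, with means of 1.04, 0.19 and 0.42. With this score as a covariate, calls in HFoleic against reference fell from 2170 to 925 over all 30003 tested probes. Of the members, 2 were called, Hdac7 (-0.47, adjusted p = 0.0369) and Hdac11 (0.37, adjusted p = 0.043). Dnmt3b, Dot1l and Suv39h2 were then not called. The time of death of each mouse is not given in the sources used here. The mean signal of the 11 tested Kupffer cell and macrophage markers ran from 9.91 to 11.05 in reference, 10.16 to 11.10 in HFoleic and 10.43 to 11.24 in HFepa, with 0 genes called. For the 8 endothelial markers it ran from 9.61 to 9.97, 9.50 to 10.04 and 9.76 to 10.08, again with 0 called. Against reference, 11 of 11 Kupffer cell and macrophage markers changed upward in HFepa (median 0.25) and 9 of 11 in HFoleic (median 0.16). Of the endothelial markers, 8 of 8 changed upward in HFepa (median 0.14) and 4 of 8 in HFoleic (median 0.009). Of 10 lymphocyte, 8 stellate and 4 bile duct markers tested, 1 each was called in HFoleic, and their part in the members' values was not tested. Cd8a, Cd79a, Epcam and Cftr had no tested probe. Of 10 hepatocyte markers, Cps1 (-0.89) and Tat (-0.63) were called lower in HFoleic, where 3.55% of all genes were called lower. The list as a whole did not fall, with 6 of the 10 changing upward in HFoleic and 4 downward (median 0.12).

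The relation of 7 members to proliferation genes was examined across the 24 mice, with the mean log2 signal of 16 tested genes as the x axis. Of these 16, 12 were well above background on all arrays, and 2 were called higher in HFoleic, beside 4.52% of all genes. Ccnb1, Cdk1, Aurkb and Bub1 of that list had no tested probe. By Pearson's r, only Uhrf1 and Hdac1, a class I deacetylase, had an adjusted p under 0.05. The Uhrf1 probe was dim (mean log2 signal 6.16, well above background on 22 of 24 arrays). For Uhrf1, r was 0.63 (permutation p = 0.00075, adjusted p = 0.00525) and rho 0.57 (p = 0.00409, adjusted p = 0.0286). Without the 2 farthest arrays, reference replicate 5 and HFoleic replicate 1, r was 0.49, and it was 0.81, 0.47 and 0.69 within the 3 slides and 0.81, 0.78 and 0.15 within reference, HFoleic and HFepa, so it did not hold in HFepa. For Hdac1, r was 0.60 (permutation p = 0.00362, adjusted p = 0.0127) and rho 0.45 (p = 0.0307, adjusted p = 0.0715), with r = 0.49 without those arrays, 0.84, 0.45 and -0.19 within slides and 0.70, 0.13 and 0.88 within the groups, so the relation did not hold in slide 3 or in HFoleic. For Ezh2 an r of 0.51 (adjusted p = 0.0855) turned to -0.22 without those 2 arrays. Kdm1a, a demethylase of lysine 4, had r = 0.17 and Suv39h1 0.30 (rho 0.50, adjusted p = 0.0478), and Dnmt1 and Suv39h2 had r of -0.14 and -0.02.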

How the data were processed

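For each array the authors deposited the scanner software's output (Agilent Feature Extraction 10.10.1.1, per the labels), whose median spot signals are intensities without normalization, and log2 median signals that the authors had filtered and quantile normalized between arrays, as a value table. The tool limma is named in the submitters' processing notes. Here the log2 median signals of a probe's spots were averaged without spots marked as outliers, 30003 probes that the software marked as well above background on 75% or more of a group's arrays were kept, and arrays were quantile normalized (limma 3.58.1, R 4.3.3). A group-means model over all 24 arrays gave 3 contrasts, two-sided, with Benjamini-Hochberg adjustment over all tested probes and calls at an adjusted p under 0.05. It was checked on simulated data. The deposited log2 table, other background corrections and normalizations, filters, slide and replicate blocks, the methods' t-test, a clock covariate and leaving out each array were alternatives. Leaving out probes with repeat runs, and the relations to the repeat probes, were chosen after seeing the data. Correlations with proliferation genes were tested with 100000 permutations, adjusted within each family (scipy 1.17.1, numpy 2.4.6, pandas 2.3.3, Python 3.11.15, the data.table package, version 1.17.8, matplotlib 3.10.9).

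Values of all 48 members were reviewed. Full values are given for members called in any comparison, the 3 with the smallest p in each, and Dnmt1, Dnmt3a, Dnmt3b, Tet1, Tet2, Tet3, Uhrf1, Hdac3, Sirt1 and Ezh2. Genes of the further lists are named where called, at most 4 per list, and 1 such gene is not reported here. The members and lists were chosen with earlier results of these data known. Probe coordinates (mm9) are those of the scanner files, 1-based, and which exon a probe lies in was not analysed here. Promoter sequences are from RefSeq (GRCm38.p6), which listed 42 of the 48 members. Replicate numbers did not pair the mice: of 22 same-numbered pairs, 3 had deviations correlated above 0.1 (median 0.003). Labels do not say whether littermates were used. The p-values treat each mouse as independent, which could not be checked. The number of arrays limits the precision.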

Additional observations from a re-analysis of the deposited data

Results flagged for a closer look

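In each group of the 19 members given in full, the highest and the lowest mouse were compared with their neighbours by Dixon's gap ratio, and 8 of 57 groups had a mouse beyond the 95% critical value, where chance gives about 1 in 20. In the reference group, replicate 5 was lowest for Tet1 (7.17, next 7.66) and highest for Tet2 (9.63, next 9.21), and replicate 4 was highest for Dnmt1 (6.99, next 6.76). Among HFepa mice, replicate 2 was lowest for Uhrf1 (5.63, next 6.03) and for Hdac6 (10.33, next 10.54), and replicate 4 was lowest for Dot1l (10.26, next 10.65). Among HFoleic mice, replicate 8 was highest for Tet3 (7.20, next 6.82) and replicate 7 for Sirt1 (9.69, next 9.45). None of these members except Dot1l was called, and Dot1l was called in HFoleic against reference, to which HFepa replicate 4 does not belong.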

How the results depend on the processing

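The 5 calls in HFoleic against reference stayed 5 in 13 of 15 alternatives that kept all arrays. The exceptions were the clock covariate (2 members) and the fit without repeat probes (3 of 44), and leaving out 1 array gave 5 to 8, with 8 (Mbd1, Sirt3 and Sirt7 added) without reference replicate 8. In HFepa against reference the member count was 1 with the slide as a block and 0 to 1 over arrays left out, and in HFepa against HFoleic it was 0 throughout. The median member change became 0.025 with the 75th percentile scaling (HFoleic) and 0.0082 with array weights (HFepa).

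Counts over all probes moved as well. In HFoleic against reference, 2170 fell to 925 with the clock covariate and was 1600 to 3090 over arrays left out. In HFepa against reference, 118 became 60 with the 75th percentile scaling, 0 without a filter (4845 at an unadjusted p under 0.05), 13 with 2 groups only, 0 by the methods' t-test (3472 unadjusted), 4 with the clock covariate and 55 with gene means. Over arrays left out it was 0 to 497: 0 without HFepa 2, HFepa 6 or reference 2, 3 without HFepa 1 or 7, 7 without reference 1, 48 without reference 4, 62 without HFepa 4, 256 without HFepa 3 and 497 without reference 8. In HFepa against HFoleic, 0 became 2 on probes above background on all arrays, 69 with array weights, 1 with gene means, 2 without repeat probes and 0 to 15 over arrays left out, with 15 without HFepa 5. The replicate block gave 2072, 98 and 0 probes and 5, 0 and 0 members.

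The relations to proliferation genes gave r = 0.47 and 0.69 within slides 2 and 3 for Uhrf1 (exact permutation p = 0.229 and 0.0562), 0.45 and -0.19 for Hdac1, and -0.81 in slide 3 for Kdm1a, against 0.17 over all mice. Suv39h1 reached 0.48 (permutation adjusted p = 0.0388) without the 2 farthest arrays and 0.76 in slide 2. Suv39h2 reached -0.50 (permutation adjusted p = 0.0388) without those arrays. Within reference, HFoleic and HFepa, r was 0.14, 0.11 and -0.89 for Suv39h2 and 0.55, -0.45 and -0.85 for Kdm1a. The causes were not tested.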

Other observations

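Enzymes that make or use the cofactors of chromatin enzymes were read in 3 lists. Of 55 tested genes, 9 were called in HFoleic against reference (4 higher, 5 lower), beside 8.07% of all genes. In HFepa 0 were called, beside 0.391% of all genes, and 8 had an unadjusted p under 0.05, beside 14%. The list around methionine and folate gave 5 of the calls among 27 tested genes, 2 higher and 3 lower. Cth, which makes cysteine from cystathionine, was lower by a log2 change of -0.80 ± 0.15 (limma adjusted p = 0.00224), Mat1a, which makes S-adenosylmethionine, by -0.65 ± 0.11 (adjusted p = 0.00135), and Ahcy, which clears S-adenosylhomocysteine, by -0.43 ± 0.10 (adjusted p = 0.00952). Mthfd1, an enzyme of the folate cycle, was higher by 0.24 ± 0.06 (adjusted p = 0.0214). For each of these genes the 8 HFoleic mice all deviated from the reference mean in the direction given. In HFepa the changes of Cth, Mat1a, Ahcy and Mthfd1 were -0.64, -0.38, -0.18 and 0.07, and none was called. Mthfd1 lies outside the limit of 4 genes a list and was named after its value was seen.

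In the NAD list, Kynu, of tryptophan breakdown, was lower (-0.41 ± 0.10, adjusted p = 0.0126) and Ido2, also of that pathway, higher (0.57 ± 0.17, adjusted p = 0.038) in HFoleic. In the acetyl-CoA list, Crat, which moves acetyl groups onto carnitine, was lower (-0.57 ± 0.12, adjusted p = 0.00602) and Bdh1, of ketone bodies, higher (0.51 ± 0.11, adjusted p = 0.0052), with 8 of 8 HFoleic mice beyond the reference mean in that direction for all 4 genes. The second tested probe of Bdh1 was also called, and those of Kynu, Ido2 and Crat were not.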
